A study of Mus musculus with 36 samples.

Results

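The liver of the Bmal1 knockout mouse was examined for genes whose mRNA still differed between times of day. The members were the 18 libraries whose column names mark them as knockout, of 36 libraries in the series, with 3 mice at each of 6 Zeitgeber times (ZT, hours after lights on): ZT0, ZT4, ZT8, ZT12, ZT16 and ZT20. All mice were C57BL/6, lived in 12 h of light and 12 h of dark, and could eat and drink at any time. The knockout group carried Bmal1 KO, named in the series title as a knockout made before birth, and the protocol calls the line cKO and credits it to C. Bradfield. The labels name no promoter, no Cre and no drug or other agent for either group. The wild-type group had the same 6 times and 3 mice per time, and was used here only to set the knockout against the same design with Bmal1 present. Knockout mice were 8 to 13.9 weeks old and wild-type mice 6.4 to 13.9 weeks old. Among knockout mice, 2 of 3 were male at ZT0, ZT8 and ZT16 while 2 of 3 were female at ZT4, ZT12 and ZT20. Each value below is CPM (the count of a gene scaled to a common library size with TMM factors) in 1 mouse liver, listed in the order of replicates 1 to 3, which carries no meaning across times.

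BMAL1 pairs with CLOCK or NPAS2 and binds E-box DNA, where it drives Per, Cry, Nr1d1, Nr1d2, Dbp, Tef and other genes. PER and CRY proteins block that activity, and the REV-ERB proteins made from Nr1d1 and Nr1d2 repress Npas2, Cry1, Clock and Bmal1 itself, so that the loop turns about once a day. A liver also receives daily signals that do not need its own clock: feeding and fasting, body temperature, glucocorticoids and other hormones, and nervous input. Loss of Bmal1 in the whole body also stops the behavioural rhythm in constant dark, while a light and dark cycle can still shape activity.

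Transcript GC content and body weight moved with time and stand beside every result. GC content was correlated over genes with how far a library lies from each gene's mean, at a Spearman's rho of 0.19 to 0.52 in the 12 knockout libraries of ZT0 to ZT12 and of -0.64 to -0.30 in the 6 of ZT16 and ZT20, a description over genes that are not independent. The first principal component held 43.6% of the variance among knockout libraries, with the 6 late libraries at 6.2 to 92.9 and the other 12 at -38.7 to -12.7. Time of day and this library trend cannot be told apart at ZT16 and ZT20, so each finding is given without those 6 libraries. Among the other 12 the trend was weakest at ZT12, with rho of 0.19, 0.35 and 0.37, against 0.41 to 0.52 at ZT0, ZT4 and ZT8. The mice of ZT12 weighed 13.7, 18.1 and 18.4 g, under all 9 mice of ZT0, ZT4 and ZT8 (19.7 to 26.5 g), and ZT20 replicate 3 weighed 15.7 g. Within the knockout libraries, body weight, the weaker GC trend and time cannot be told apart at ZT12. In wild type rho was 0.29, 0.19 and 0.19 at ZT12, in mice of 29.2, 22.4 and 19.8 g. It was 0.32 to 0.49 at ZT0, ZT4 and ZT8 of wild type. Total counts were 12695895 to 12839653 per knockout library.

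**Figure D1:**
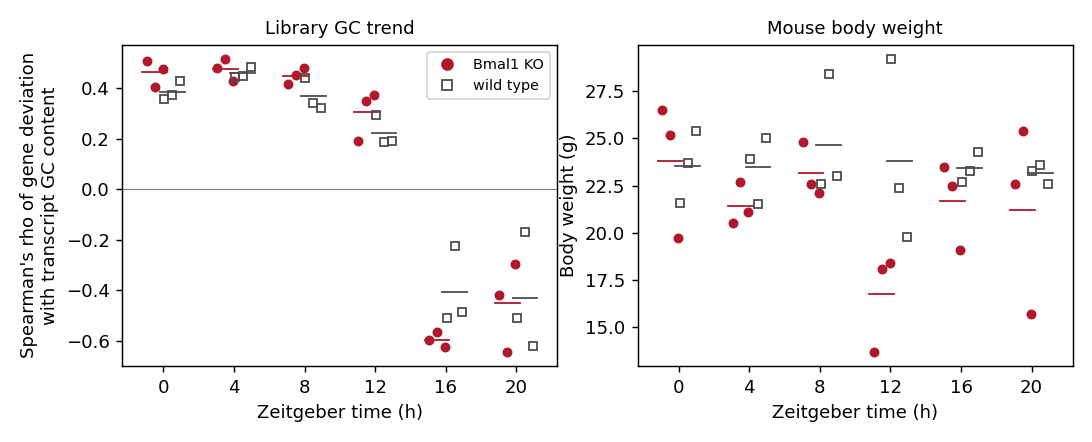
The left panel plots Spearman's rho, over genes, between transcript GC content and how far a library lies from each gene's mean, and the right panel plots body weight in grams, both against Zeitgeber time in hours. Each point is 1 mouse and each short line a group mean of 3; knockout libraries of ZT16 and ZT20 lie between -0.64 and -0.30 in the left panel, and the 3 knockout mice of ZT12 lie between 13.7 and 18.4 g in the right panel.

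Across all 6 times, 6777 of 12707 tested genes differed between times in the knockout liver (53.3%; edgeR quasi-likelihood F test, adjusted p under 0.05). Without the libraries of ZT16 and ZT20, 0 of 12462 genes passed the same test (0%), and the smallest adjusted p was 0.18. At an unadjusted p under 0.05, edgeR gave 1509 genes over ZT0 to ZT12 (12.1%). DESeq2's likelihood ratio test called 236 genes on the same 12 libraries, limma-voom with the cage as a random block called 0, and edgeR fitted to both genotypes together called 36. The same edgeR test in the 12 wild-type libraries of those times called 1810 of 12662 genes (14.3%). The difference between the courses of the genotypes was itself tested, and 410 of 12981 genes passed (3.16%), of which 374 were also called in wild type.

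Both genotypes had the same number of mice, and spread and size of change were compared. The common biological coefficient of variation was 0.17 in the knockout fit of 12 libraries and 0.15 in the wild-type fit. The median gene had a range of the 4 group means of 0.33 on the log2 scale in knockout and 0.39 in wild type. In the same knockout fit of 12 libraries, 395 of 12462 genes differed by sex (3.17%, adjusted p under 0.05), and with all 18 libraries 1042 did (8.2%). Of the 1786 genes that were called in wild type and tested in knockout, 280 (15.7%) had an unadjusted p under 0.05 in knockout, against 12.1% of all genes.

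No single time from ZT0 to ZT12 stood apart from the other 3 by the adjusted test. Against the mean of the other 3, edgeR called 0 genes (0%) at each of the 4 times, and at an unadjusted p under 0.05 it gave 1163 genes at ZT0 (9.33%), 1457 at ZT4 (11.7%), 467 at ZT8 (3.75%) and 1868 at ZT12 (15%). DESeq2 called 23, 34, 8 and 237 genes at those times. ZT12, the time of the light mice, held most of the DESeq2 calls. Without the ZT12 libraries edgeR still called 0 genes, with 985 at an unadjusted p under 0.05, and with body weight as a covariate it called 0 over ZT0 to ZT12, with 1177 unadjusted. A 24 h cosine fit called 6451 of 12707 genes with all 18 libraries (50.8%) and 0 without ZT16 and ZT20, where 1423 had an unadjusted p under 0.05 and the smallest adjusted p was 0.083.

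No core clock gene passed the test from ZT0 to ZT12 in the knockout liver. Of 17 core clock genes tested, 0 passed over those times, 1 had an unadjusted p under 0.05 (Rora), and their median range was 0.34 on the log2 scale, beside 0.33 for all genes. In wild type 16 of the 17 were called (background 14.3%) and the median range was 2.72. The courses differed between genotypes for 15 of the 17 (background 3.16%). Bhlhe41 and Gm129 (Ciart), both direct E-box targets, were too low in knockout to be tested, at no more than 0.0759 and 1.33 CPM in any library.

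Genes of the positive arm did not pass from ZT0 to ZT12. Arntl, the gene of BMAL1 (ENSMUSG00000055116, mm9 chr7:120350979-120457636), gave 14.6 to 24 CPM over the 18 knockout libraries, and a count over the whole gene does not show which exons the reads came from, so it does not check the deletion. Npas2, which replaces CLOCK as a partner of BMAL1, had 43.1, 37.3 and 48.8 CPM at ZT0, 42.3, 46.2 and 43.1 at ZT4, 30.7, 49.2 and 49.3 at ZT8 and 48.5, 40.2 and 45.6 at ZT12. The 4 groups overlap fully, and the test over these times gave an adjusted p of 0.998 with a range of 0.03 on the log2 scale. In wild type the same gene spanned 0 to 21.6 CPM, and the courses differed (interaction adjusted p = 1.8e-08). Clock had 54.5, 61.7 and 62.9 CPM at ZT0, 31.4, 60.5 and 33.1 at ZT4, 57.4, 57.5 and 58.1 at ZT8 and 77.3, 58.1 and 59 at ZT12; the values at ZT4 replicates 1 and 3 were the lowest of the 12 (adjusted p = 0.41).

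The repressors Per1, Per2 and Cry1 were expressed and did not pass. Per1 had 24.5, 19 and 39.9 CPM at ZT0, 26.3, 15.8 and 21.4 at ZT4, 16.9, 43 and 10.1 at ZT8 and 78.7, 7.01 and 26.5 at ZT12. All 4 groups overlap, and the highest and the lowest of the 12 values were both from ZT12 (adjusted p = 0.86). The highest was in the 13.7 g mouse, and ZT20 replicate 3, the 15.7 g mouse, had the highest of the 6 late values. Per2 had 37, 61 and 61.8 CPM at ZT0, 16.2, 58.5 and 11.8 at ZT4, 64.3, 58.5 and 55.8 at ZT8 and 25.6, 33.2 and 37.8 at ZT12 (adjusted p = 0.46). Replicates 1 and 3 of ZT4, both female, were the lowest, and the male ZT4 replicate 2 lay among the values of ZT0 and ZT8. Cry1 spanned 59.3 to 117 CPM with overlapping groups (adjusted p = 0.55).

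The promoters of Per1 and Cry1 are shown because both genes carry the letters CACGTG, the E-box that BMAL1 binds, and both had mRNA in the knockout. They are the 250 bases before the first listed RefSeq start with a match on GRCm38.p6. They are read in the gene's direction, with the E-box in capitals. Of 20 core clock genes, 16 matched the table and 5 of these held CACGTG before any listed start. That stands beside 6.02% of all 32851 promoters, counted singly. The letters read the same on both strands. Per1 lies at chr11:69098699-69098948 on the plus strand, with the match 166 bases before the start, and Cry1 at chr10:85185055-85185304 on the minus strand, with the match 60 bases before it.
Per1: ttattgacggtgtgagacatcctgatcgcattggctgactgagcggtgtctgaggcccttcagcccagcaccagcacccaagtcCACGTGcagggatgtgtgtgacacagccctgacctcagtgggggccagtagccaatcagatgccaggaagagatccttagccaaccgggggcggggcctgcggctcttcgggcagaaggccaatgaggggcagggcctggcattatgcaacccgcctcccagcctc
Cry1: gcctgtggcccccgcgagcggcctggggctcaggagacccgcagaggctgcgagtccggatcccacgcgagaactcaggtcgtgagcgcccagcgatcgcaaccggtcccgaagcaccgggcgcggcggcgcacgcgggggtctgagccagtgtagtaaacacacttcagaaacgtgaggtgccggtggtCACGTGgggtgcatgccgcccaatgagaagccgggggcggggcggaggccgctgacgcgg

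Outputs of the clock, the REV-ERB genes and Rora did not pass either. Dbp, which drives detoxification genes, had 7.31, 3.94 and 3.51 CPM at ZT0, 7.59, 7.17 and 8.34 at ZT4, 3.65, 4.57 and 5.82 at ZT8 and 4.31, 7.09 and 5.12 at ZT12. Its ZT4 values were the tightest, and ZT0 replicate 1 lay among them (adjusted p = 0.5, against 1.2e-07 in wild type). Tef spanned 114 to 185 CPM, Hlf 38 to 66.1 CPM and Nfil3 32.9 to 58 CPM over the 12 libraries, with adjusted p values of 0.65, 0.98 and 0.82. Nr1d1 stood at only 0.946 to 4.3 CPM and Nr1d2 at 3.51 to 18.5 CPM. Rora, the activator that competes with REV-ERB, had 94.4, 76.7 and 66 CPM at ZT0, 61.1, 84.7 and 62.2 at ZT4, 69.2, 79.1 and 76.5 at ZT8 and 107, 92.4 and 88.7 at ZT12. Its ZT12 values were above all but ZT0 replicate 1 (unadjusted p = 0.03, adjusted p = 0.38 by edgeR), and wild type gave an adjusted p of 0.17 with no interaction call (0.88).

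**Figure D2:**
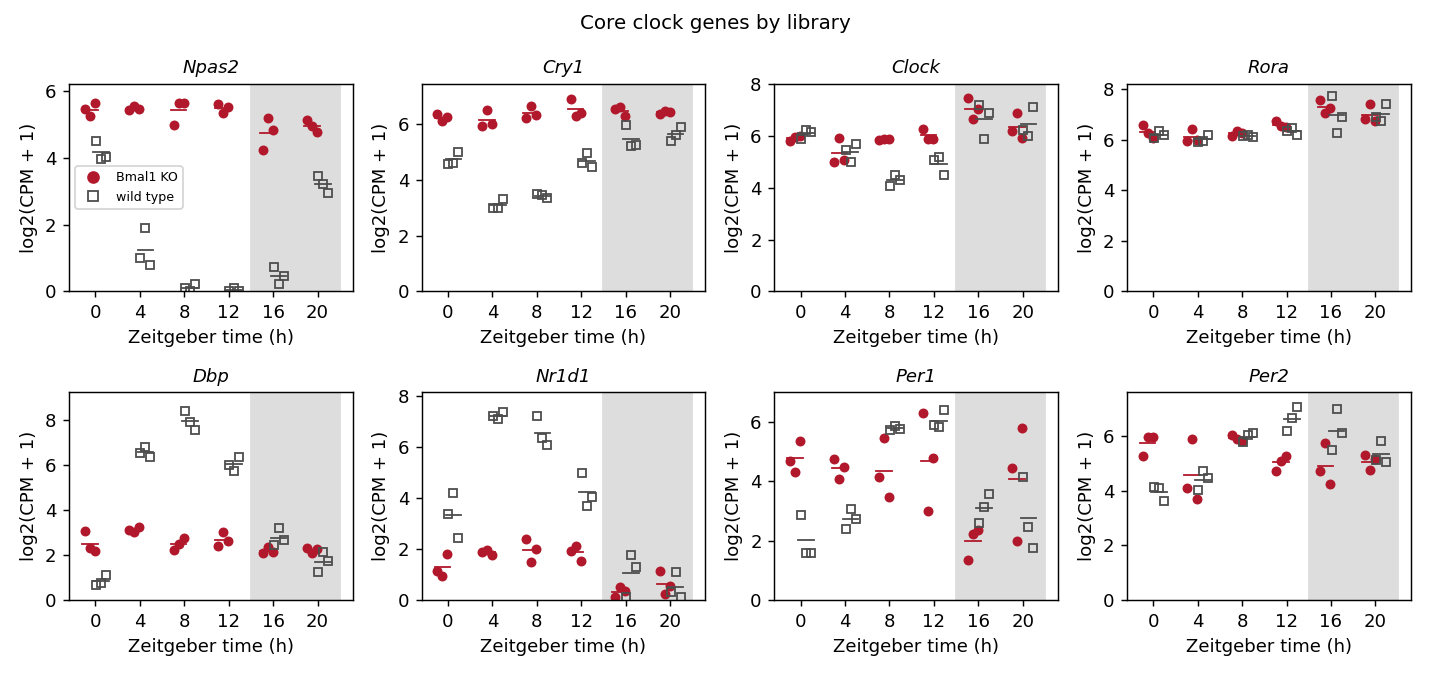
Log2 of CPM plus 1 for 8 core clock genes against Zeitgeber time in hours, with 1 point per mouse and a short line at each group mean of 3. Grey marks ZT16 and ZT20. From ZT0 to ZT12 the knockout groups of Npas2 overlap. The knockout ZT4 points of Dbp lie above ZT8 and ZT12 and overlap with ZT0. Wild type was called over those times for both genes. Per1 and Per2 spread widely within single times in knockout.

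With ZT16 and ZT20 included, 9 of the 17 core clock genes passed in the knockout, and 4 passed after each library's GC trend was removed (background 53.3% and 32.5% of genes). Those 4 were Nr1d1, Bhlhe40, Cry2 and Cry1, of which Cry1 did not pass before the trend was removed (adjusted p = 0.28). Nr1d1, the REV-ERB alpha gene, had 0.0918, 0.416 and 0.300 CPM at ZT16 and 1.2, 0.184 and 0.470 at ZT20, and only ZT20 replicate 1 reached the early values. Bhlhe40, a repressor that E-boxes and other signals drive, had 61.3 to 113 CPM from ZT0 to ZT12, then 16.2, 41.8 and 31.5 at ZT16 and 46.7, 26 and 44 at ZT20. The 6 late values were all under the 12 others, a difference of -1.42 ± 0.18 (log2, SE) that stood at -1.33 ± 0.17 with the GC trend removed (adjusted p = 1.6e-05). Cry2 was 59.7 to 90.5 CPM and then 18.5 to 49.6 CPM; its difference of -1.09 came to -0.49 with the trend removed. Npas2, Per3 and Nfil3 passed over 6 times and did not once the trend was removed, with adjusted p values of 0.58, 0.15 and 0.54.

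The genes taken up next were those that both DESeq2 and the edgeR fit of both genotypes called over ZT0 to ZT12. Both fits used the same 12 knockout libraries, so a call by both is not independent support. There were 33, all with an unadjusted edgeR p under 0.05. Of these, 24 were highest at ZT12, beside 29.9% of all tested genes and 38.8% of genes under that unadjusted threshold. In wild type 16 of the 33 were called (background 14.3%). These genes were chosen after their values were seen, so the values below are a description. The fit of both genotypes called 36 genes with all 24 libraries, 18 with the GC trend removed, and 0 without the lightest mouse, ZT12 replicate 1 (smallest adjusted p = 0.058). DESeq2 without that mouse called 121 genes, of which 97 were among the 236 (41.1%), and it kept 24 of the 33 and 18 of the 24 that were highest at ZT12. The median transcript GC content of the 24 was 40.7%, beside 49.6% for all tested genes.

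Zfp871, a zinc finger gene on mm9 chr17:32908181-32925232, had the smallest DESeq2 p. It had 6.34, 4.41 and 1.76 CPM at ZT0, 2.2, 4.45 and 1.35 at ZT4, 1.87, 2.09 and 2.91 at ZT8 and 36.6, 15.5 and 13.3 at ZT12. The lowest ZT12 value was above the 9 values of ZT0, ZT4 and ZT8, and the group means spanned 3.36 on the log2 scale. At ZT16 and ZT20 it was 2.43 to 8.0 CPM. Adjusted p was 0.18 by the edgeR test of 12 libraries, 7.4e-09 by DESeq2 and 3.3e-07 by DESeq2 without the lightest mouse, and wild type was called too (0.0024). Zinc finger genes lie in families of similar sequence, and how reads that match several genes were counted is not given in the sources used here.

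Several enzymes and trafficking genes had all 3 ZT12 values on top. C1galt1, which extends O-linked glycans, had 9.56, 8.43 and 8.64 CPM at ZT0, 5.62, 8.16 and 5.32 at ZT4, 6.41, 5.96 and 6.51 at ZT8 and 15.1, 12.1 and 13.6 at ZT12 (DESeq2 adjusted p = 3e-06). Aass, the first enzyme of lysine breakdown, had 423, 389 and 434, then 418, 409 and 481, then 461, 439 and 518 and at ZT12 634, 673 and 556 CPM (DESeq2 adjusted p = 3.5e-06). The ZT12 values of both genes were above the 9 earlier ones, and Aass stood at 526 to 681 CPM at ZT16 and ZT20. Lnpep, an aminopeptidase that travels with the insulin-responsive glucose transporter, was 1.27 to 2.25 CPM from ZT0 to ZT8 and 9.08, 4.6 and 3.68 CPM at ZT12. Usp9x, an X-linked deubiquitinase, was 28.2 to 51.4 and then 103, 71 and 67.5 CPM. In both, the value of the lightest mouse was the highest of ZT12.

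Further genes of the 24 follow. Xrn1, the exonuclease that degrades decapped mRNA, was 1.82 to 3.85 CPM from ZT0 to ZT8 and 7.16, 4.98 and 4.96 CPM at ZT12. Ranbp2, a nuclear pore protein, was 49.2 to 86.2 and then 116, 105 and 111 CPM, and Thoc2, of the mRNA export complex, 22.7 to 31.3 and then 43.1, 35.9 and 36.4 CPM. Thoc2 lost its DESeq2 call without the lightest mouse (adjusted p = 0.21), while Ranbp2 (0.0094) and Xrn1 (0.033) did not. Tbc1d8b, a Rab regulator, was 11.2 to 19.6 CPM before ZT12 and 26.5, 23.4 and 28.1 at it, and Pls3, an actin bundler, was 78.3 to 128 and then 159.8, 148 and 134 CPM. Klf3, a transcriptional repressor, was 12.2 to 20.4 and then 25.9, 19 and 25 CPM. Hspa4l, a chaperone of the HSP110 family, had 18.2, 17.3 and 19 CPM at ZT8 and 30.9, 33.4 and 29.4 CPM at ZT12, and lay at 31.9 to 39.6 CPM later; its late difference was -0.11 (log2, adjusted p = 0.26) with the GC trend removed.

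Of the 33 genes, 8 were lowest at ZT12, beside 29.4% of all tested genes. Srsf7, a splicing factor, had 40.1, 50.3 and 55 CPM at ZT0, 29.1, 31.7 and 23.8 at ZT4, 49.2, 42.8 and 38.5 at ZT8 and 21.9, 28.9 and 30.6 at ZT12, so ZT4 and ZT12 were both low. Fcgrt, the neonatal Fc receptor that recycles albumin, was 115 to 164 CPM before ZT12 and 99.2, 110.1 and 104 CPM at it. Fcgrt lost its DESeq2 call without the lightest mouse (adjusted p = 0.09). Anxa5, a binder of exposed phosphatidylserine, was 64.5 to 104 CPM and then 48.6, 66.2 and 49.3 CPM, and Itga8, an integrin of mesenchymal cells, 5.44 to 12.6 and then 4.08, 2.94 and 1.52 CPM. Pcolce, which helps to cut procollagen, had 6.26, 5.83 and 6.81 CPM at ZT0 and 2.77, 2.71 and 1.52 at ZT12, and its ZT8 values were 2.92, 2.71 and 5.29. The ZT12 values of Itga8 were the lowest 3 of the 12.

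**Figure D3:**
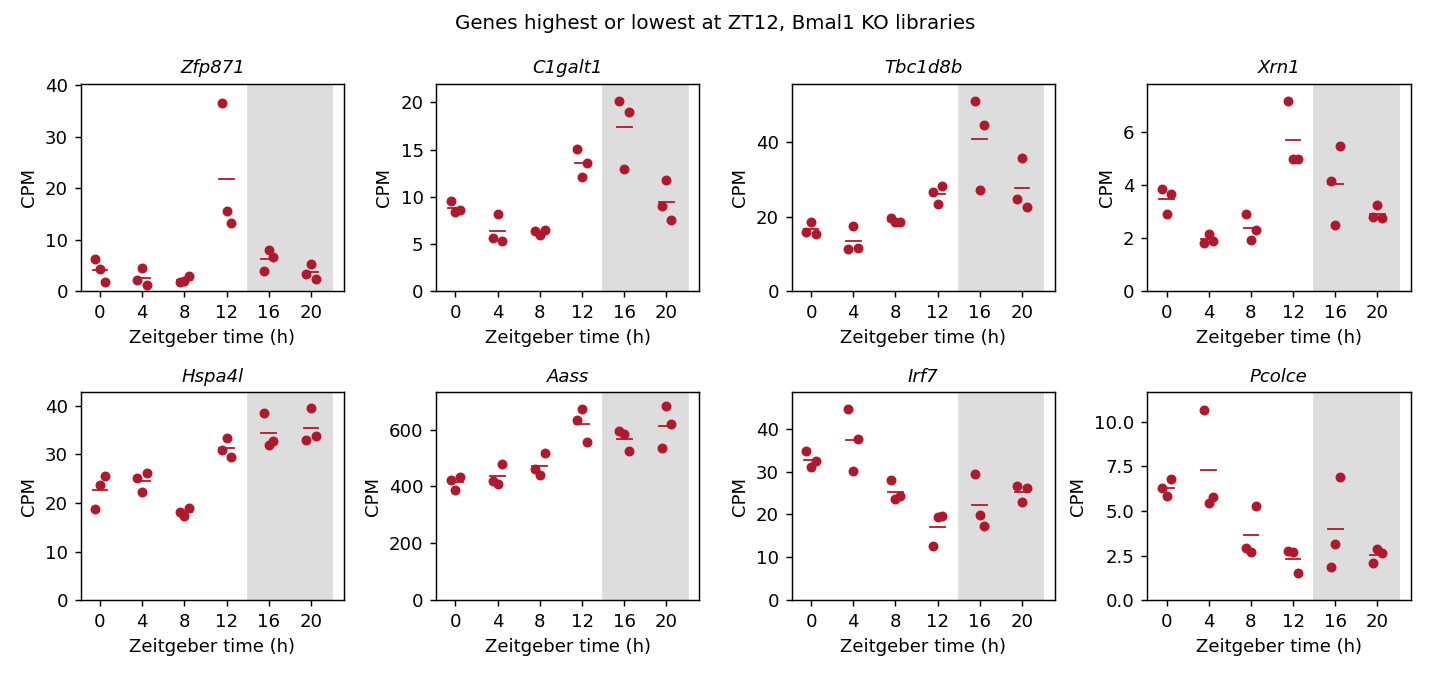
CPM of 8 genes called by both DESeq2 and the edgeR fit of both genotypes, against Zeitgeber time in hours, in knockout libraries. Each point is 1 mouse, lines are means of 3 and grey marks ZT16 and ZT20; Zfp871 and C1galt1 have all 3 ZT12 points above ZT0, ZT4 and ZT8, and Irf7 has its lowest group there.

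Interferon response genes had low means at ZT12 in the knockout, although none passed the adjusted test. Interferon-stimulated genes are antiviral genes that interferons switch on, and a liver without infection keeps a low level of them. Of 17 tested, 0 passed over ZT0 to ZT12 and 12 had an unadjusted p under 0.05 (background 12.1%); 16 of 17 had their lowest mean at ZT12, beside 29.4% of all tested genes. Their median range was 1.04 on the log2 scale, beside 0.33 for all genes. In wild type 1 of 17 (Rsad2) was called (background 14.3%). There 8 were lowest at ZT8 and 6 at ZT12, beside 23.3% and 27.6% of all genes tested in wild type. The list's median difference from the mean of ZT0 to ZT12 was 0.29, 0.19 and 0.54 (log2) at ZT0, 0.75, -0.28 and 0.77 at ZT4, -0.14, -0.58 and 0.19 at ZT8 and -1.0, -0.08 and -0.46 at ZT12. The lightest mouse was the lowest, and ZT12 replicate 2 lay above ZT8 replicates 1 and 2.

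Irf7, the factor that amplifies the response, had 34.7, 31.1 and 32.4 CPM at ZT0, 44.5, 30.2 and 37.7 at ZT4, 28, 23.7 and 24.2 at ZT8 and 12.5, 19.5 and 19.5 at ZT12. All 3 ZT12 values were under the other 9. Adjusted p was 0.21 by edgeR on 12 libraries and 0.00013 by DESeq2, and the courses differed between genotypes (interaction adjusted p = 0.039). Isg15, a ubiquitin-like modifier, was 10.1 to 14.2 CPM at ZT0 and ZT4, then 7.71, 5.57 and 8.27 at ZT8 and 2.77, 8.22 and 6.16 at ZT12, and 9.45 to 18.1 CPM at ZT16 and ZT20. Ifit1, which binds foreign RNA, was 6.1 to 17.1 CPM, then 7.39, 4.02 and 10.04 and 2.85, 7.32 and 5.04, and 11.7 to 19.2 CPM later. Gbp3, a guanylate-binding protein, had 11, 2.97 and 14.5 CPM at ZT4 and 1.15, 3.32 and 2.16 at ZT12. Its low ZT4 value was from replicate 2, the male.

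Over 6 times, 11 of the 17 interferon genes passed, and 12 with the GC trend removed (background 53.3% and 32.5%). Isg15 was higher at ZT16 and ZT20 than at the other times by 0.53 (log2, adjusted p = 0.012) and by 0.92 with the trend removed (adjusted p = 0.00038). Markers of Kupffer cells, the liver's resident macrophages and a source of such genes, mostly had their lowest mean at ZT12 too. Of these markers 11 of 13 were lowest at ZT12 in knockout and 11 of 13 in wild type, beside 29.4% and 27.6% of all genes. Their summed level was 166 to 309 CPM at ZT0, 104 to 337 at ZT4, 136 to 218 at ZT8 and 99.7 to 239.9 at ZT12. Those ranges overlap, 0 of the 13 markers passed over ZT0 to ZT12, and none was at 0 in every knockout library. The lowest ZT12 sum was in the lightest mouse, and the other ZT12 female had 239.9 and the male 162 CPM. From ZT0 to ZT12 the sums were 104 to 167 CPM in males and, without the lightest mouse, 218 to 337 in females. The part of Kupffer cells in the result was not tested. In whole liver, fewer cells of a type and less RNA per cell cannot be told apart.

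Promoters of 3 interferon genes are shown since these genes had their lowest means together at ZT12. The letters searched were GAAA and GAAA parted by NN (any 2 bases), and on the other strand TTTC and TTTC parted alike, a core of the interferon-stimulated response element, and overlapping matches were each counted. Of the 17 genes, 15 matched the RefSeq table and 10 held a match in the 250 bases before any listed start. That stands beside 2.98% of all 32851 promoters, counted singly. Capitals mark the matches, of which Isg15 has 3, Ifit1 2 and Gbp3 2. On GRCm38.p6 the stretches are chr4:156200819-156201068 on the minus strand, chr19:34640639-34640888 on the plus strand and chr3:142559794-142560043 on the plus strand. A match describes letters and is not evidence of binding.
Isg15: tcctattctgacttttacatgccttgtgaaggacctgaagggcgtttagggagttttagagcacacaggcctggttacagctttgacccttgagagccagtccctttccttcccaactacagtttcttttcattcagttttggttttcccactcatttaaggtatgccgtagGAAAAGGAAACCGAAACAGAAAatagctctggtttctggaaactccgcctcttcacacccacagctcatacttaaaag
Ifit1: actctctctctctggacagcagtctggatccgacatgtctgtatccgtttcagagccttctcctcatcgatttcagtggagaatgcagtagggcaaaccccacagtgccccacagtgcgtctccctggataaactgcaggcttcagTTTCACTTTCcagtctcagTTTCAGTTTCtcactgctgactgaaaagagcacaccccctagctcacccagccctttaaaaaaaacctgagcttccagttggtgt
Gbp3: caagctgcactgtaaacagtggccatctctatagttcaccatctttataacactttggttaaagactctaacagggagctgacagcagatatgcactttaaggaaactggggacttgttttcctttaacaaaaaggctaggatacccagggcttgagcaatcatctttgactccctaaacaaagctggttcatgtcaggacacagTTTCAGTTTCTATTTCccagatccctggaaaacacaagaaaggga

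Heat shock genes mostly had their highest mean from ZT0 to ZT12 at ZT0, although none passed the adjusted test over those times. HSF1 drives these chaperones, and daily body temperature can drive them in liver without the local clock. Of 20 tested in the knockout, 0 passed over ZT0 to ZT12 and 13 had an unadjusted p under 0.05 (background 12.1%), with a median range of 0.71 on the log2 scale. The highest mean was at ZT0 for 14 of 20, beside 23.5% of all tested genes. In wild type 13 of 19 were called (background 14.3%), 12 were highest at ZT0 (background 28.7%) and the median range was 0.72. The courses differed between genotypes for 0 of the 20 at an adjusted p under 0.05. Per library the list's median difference was 0.09, 0.22 and 0.31 (log2) at ZT0, -0.33, 0.0 and -0.21 at ZT4, -0.01, -0.07 and -0.03 at ZT8 and -0.25, -0.06 and -0.09 at ZT12, so that all 3 ZT0 libraries were above the 9 others.

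Hspa8, the constitutive cytosolic chaperone, had 1214, 1423 and 1751 CPM at ZT0, 843, 815 and 903 at ZT4, 1171, 1115 and 1142 at ZT8 and 1063, 1253 and 1139 at ZT12. The 3 ZT4 values were the lowest of the 12 (unadjusted p = 0.00036, adjusted p = 0.21 by edgeR), and wild type gave an adjusted p of 0.019. Hspa8 had 1899, 1733 and 1634 CPM at ZT16 and 1416, 1495 and 2262 at ZT20. Its late difference was 0.41 (log2, adjusted p = 0.0047 by edgeR) with the GC trend removed. Hspa1b, the inducible HSP70, had 12.4, 20.8 and 21.4 CPM at ZT0, 3.57, 9.48 and 2.46 at ZT4, 7.79, 27.2 and 9.5 at ZT8 and 1.69, 6.11 and 4.64 at ZT12. ZT8 replicate 2 was above all ZT0 values, so the groups overlap. Hspa1b and Hspa1a are near-identical copies, and reads of the pair may be shared between them. Dnajb1, a co-chaperone that HSF1 drives, had 25.6, 32.8 and 43.9 CPM at ZT0 and 15.8, 14.9 and 19.8 at ZT12 (adjusted p = 0.34), and Hsph1 had 70.2, 94 and 145 at ZT0 and 33.8, 67.7 and 35.6 at ZT4 (adjusted p = 0.34).

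Over 6 times 16 of the 20 heat shock genes passed, and 13 did so with the GC trend removed (background 53.3% and 32.5%). With the trend removed, 6 of the 20 were higher at ZT16 and ZT20 than at the other times (background 25.2%) and 2 were lower (20.1%). Hspe1, the mitochondrial co-chaperonin, was 116 to 178 CPM from ZT0 to ZT12, 298, 300.1 and 269 at ZT16 and 195, 318 and 213 at ZT20, with every late value on top. That difference was 0.80 (log2), and 0.55 with the GC trend removed (adjusted p = 9.7e-05). Its promoter is shown because it holds 2 overlapping matches to the heat shock element, searched as GAA, TTC and GAA parted by NN (any 2 bases), and on the other strand as TTC, GAA and TTC parted alike. Of 20 list genes 15 matched the table, and 2 of them, Hspe1 and its divergent neighbour Hspd1, held a match before any listed start. That stands beside 0.466% of all promoters, counted singly. The stretch is chr1:55087898-55088147 on the plus strand of GRCm38.p6.
Hspe1: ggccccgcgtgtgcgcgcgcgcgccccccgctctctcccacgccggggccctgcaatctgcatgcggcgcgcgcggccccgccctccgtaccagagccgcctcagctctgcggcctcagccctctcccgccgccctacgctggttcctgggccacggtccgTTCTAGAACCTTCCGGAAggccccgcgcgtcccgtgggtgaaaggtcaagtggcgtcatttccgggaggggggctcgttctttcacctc

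The cold-inducible RNA-binding protein gene Cirbp was lowest at ZT0. It had 30.4, 24.1 and 18.8 CPM at ZT0, 47.2, 40.7 and 55.3 at ZT4, 29.9, 35.6 and 28.3 at ZT8 and 57.5, 38.8 and 45.5 at ZT12. The 3 ZT4 values and the 3 ZT12 values were all above ZT0, ZT8 and the late times (23.4 to 34.7 CPM). Over ZT0 to ZT12 the unadjusted p was 0.0016 and the adjusted p 0.27 by edgeR; over 6 times Cirbp passed (adjusted p = 0.00087), and it did so without the GC trend (adjusted p = 0.0052). Rbm3, its relative, had 42.9, 61.9 and 31.9 CPM at ZT4 and 72.1, 68.1 and 51 at ZT12 with overlap (adjusted p = 0.48).

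Ribosome biogenesis genes mostly had their highest mean from ZT0 to ZT12 at ZT0 and their lowest at ZT4. Their products make and fold ribosomal RNA in the nucleolus. Of 22 tested, 0 passed over ZT0 to ZT12, 10 had an unadjusted p under 0.05 (background 12.1%), 18 were highest at ZT0 and 16 lowest at ZT4, beside 23.5% and 27.2% of all tested genes. In wild type 4 of 22 were called (background 14.3%), 16 were highest at ZT12 (background 26.8%) and 13 were lowest at ZT4 (background 20.8%). Nop58, of the box C/D particle, had 19.8, 46.3 and 40.8 CPM at ZT0, 13.7, 18.8 and 13.8 at ZT4, 42.7, 21.3 and 34.1 at ZT8 and 14.2, 27.3 and 22.7 at ZT12, and ZT0 replicate 1 lay with the low group (adjusted p = 0.37). Nolc1 had 39.1, 70.7 and 60.8, 19.2, 47.8 and 15.2, 83.5, 46.4 and 44.7 and 18.1, 22.6 and 34.7 CPM at the 4 times in turn. Its ZT4 replicate 2 stood apart from the other 2 ZT4 values, as it did for Per2. The list's median difference was -0.07, 0.45 and 0.49 (log2) at ZT0 and -0.36, -0.08 and -0.54 at ZT4. It was 0.58, -0.08 and 0.18 at ZT8 and -0.21, -0.14 and -0.09 at ZT12. The highest of these libraries was ZT8 replicate 1, and the ZT4 and ZT12 values overlap.

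Over 6 times 19 of the 22 passed and 9 did so with the GC trend removed (background 53.3% and 32.5%), so the second share is near that of all genes. Npm1, nucleophosmin, was 126 to 226 CPM from ZT0 to ZT12 and 262 to 387 CPM at ZT16 and ZT20. The late values were all higher, by 0.95 (log2), or 0.46 with the trend removed (adjusted p = 0.00089). Bop1 went the other way, with 27.7 to 42.5 CPM and then 11.1 to 18.3 CPM, a difference of -1.21 that came to -0.38 with the trend removed (adjusted p = 0.00084).

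Cholesterol synthesis genes, which SREBP2 drives when sterols are low, had their highest mean from ZT0 to ZT12 at ZT4. The spread among mice of 1 time was wide. Of 24 tested, 0 passed over ZT0 to ZT12 and 2 had an unadjusted p under 0.05 (Fdft1 and Srebf2), beside a background of 12.1%. All 24 were highest at ZT4 and 20 lowest at ZT12, beside 27.4% and 29.4% of all genes. In wild type 7 were called (background 14.3%), 18 were highest at ZT0 (background 28.7%) and 14 lowest at ZT12 (background 27.6%). The list's median difference was -0.64, 0.63 and 0.24 (log2) at ZT0, 0.65, 0.35 and 1.01 at ZT4, 0.13, -1.44 and 0.15 at ZT8, -0.78, 0.0 and -0.20 at ZT12, -1.20, 0.02 and -0.50 at ZT16 and -0.30, -0.49 and -2.06 at ZT20. The members were high or low together in each mouse, so their 24 maxima are not 24 separate observations. ZT8 replicate 2 and ZT20 replicate 3 were the lowest mice, and they were a 22.6 g male and a 15.7 g female.

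Single members showed that spread. Sqle, squalene epoxidase, had 21, 108 and 76.8 CPM at ZT0, 75.3, 71.9 and 127 at ZT4, 46.6, 5.34 and 54.9 at ZT8 and 12.5, 38.1 and 29.6 at ZT12 (adjusted p = 0.47). Fdft1, squalene synthase, had 193, 159 and 298 CPM at ZT4 and 78.3, 115 and 79.8 at ZT12 (unadjusted p = 0.013, adjusted p = 0.34). ZT4 had the highest mean in both, and ZT0 replicate 2 (78.7, 204 and 137 CPM at ZT0 for Fdft1) reached into it. Hmgcs1 was not analysed here.

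**Figure D4:**
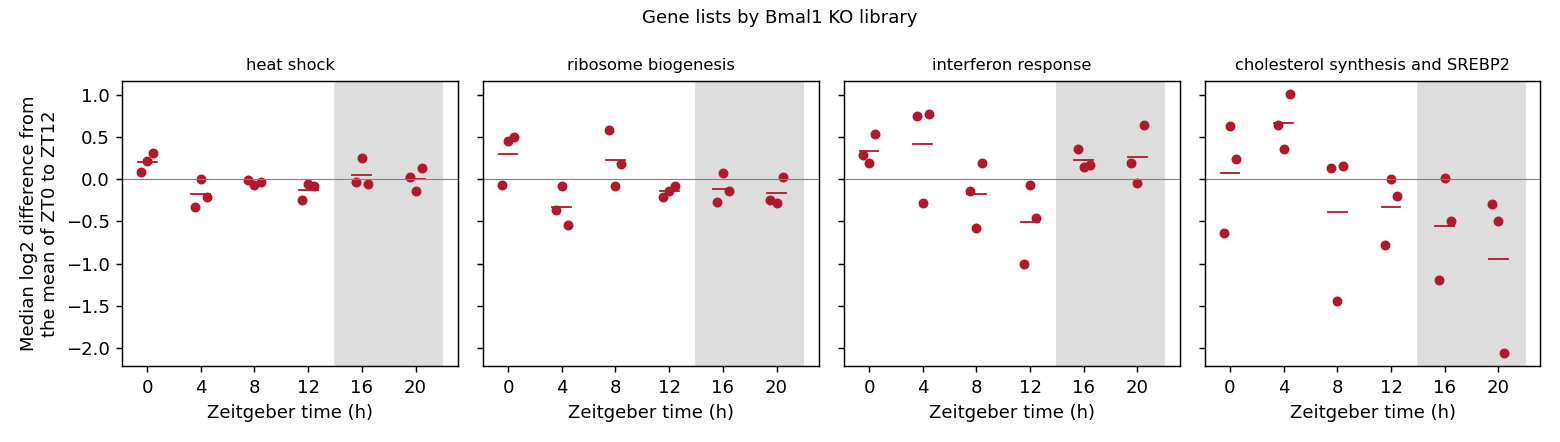
Median over a list's genes of the log2 difference from the gene's mean over ZT0 to ZT12, against Zeitgeber time in hours, for 4 gene lists in the 18 knockout libraries. Each point is 1 mouse, lines are means of 3 and grey marks ZT16 and ZT20; the 3 ZT0 points of the heat shock list lie above the other 9 points of ZT0 to ZT12, and the cholesterol list reaches -2.06 in ZT20 replicate 3.

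From ZT0 to ZT12, fatty acid synthesis genes were also mostly highest at ZT4, and gluconeogenesis and glucocorticoid-responsive genes at ZT12. Of 20 fatty acid and triglyceride synthesis genes, 15 were highest at ZT4 (27.4% of all genes) and 3 had an unadjusted p under 0.05. Of 14 gluconeogenesis and insulin-repressed genes, 11 were highest at ZT12 (29.9% of all genes) and 3 had an unadjusted p under 0.05, and of 16 glucocorticoid-responsive genes 12 and 3. Those unadjusted counts stand beside 12.1% of all genes, and 0 members of these 3 lists were called by the adjusted edgeR test. Wild type had 10 of 20, 7 of 14 and 14 of 16 highest at ZT12, beside 26.8% of all genes tested in wild type. PPARalpha and fatty acid oxidation genes went otherwise in knockout, with 15 of 26 highest at ZT4 and 4 at ZT12. Of those 26, 11 were lowest at ZT12 (29.4% of all genes). Igfbp1, an insulin-repressed secreted protein, had 43.4, 7.17 and 14.7 CPM at ZT0, 130.3, 47.2 and 145 at ZT4, 33.8, 22 and 42.3 at ZT8, 377, 52.8 and 103 at ZT12 and 38.6, 31.9 and 478 at ZT20. The 2 highest values were from the 2 lightest mice, of 13.7 and 15.7 g. The glucocorticoid list had its highest medians in the same mice, with 1.15, -0.16 and 0.19 (log2) at ZT12 and 0.21, -0.44 and 1.34 at ZT20. Klf9, a glucocorticoid-induced repressor, had 47.9, 33.9 and 25.7 CPM at ZT0 and 107, 51 and 69.4 at ZT12 (unadjusted p = 0.0056, adjusted p = 0.31).

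No growth hormone or acute phase gene passed over ZT0 to ZT12 by edgeR. Igfbp3, a carrier of IGF-1, had 19.4, 16.3 and 24.9 CPM at ZT0, 37.4, 13.4 and 21.5 at ZT4, 10.1, 12.4 and 19.1 at ZT8 and 10.5, 9.28 and 6.16 at ZT12, with ZT12 replicate 2 and 3 below all other values and replicate 1 among ZT8 (adjusted p = 0.18; interaction adjusted p = 0.042). Stat5b, which relays growth hormone, had 79, 68.6 and 68.7 CPM at ZT0, 114, 99.7 and 119.6 at ZT4, 83.6, 104 and 85.3 at ZT8 and 127, 84.2 and 87.8 at ZT12; its 3 ZT0 values were under the other 9, and the courses of the genotypes differed (interaction adjusted p = 0.0071). Saa1, an acute phase protein, had 8.42, 234 and 16.1 CPM at ZT4 and 1.77 to 49.3 CPM at ZT0, ZT8 and ZT12, and Lcn2, a siderophore binder, had 3.64, 127 and 30.6 CPM at ZT4. Both were called by DESeq2 and the fit of both genotypes, and in both the ZT4 maximum was 1 mouse, replicate 2. Of 20 acute phase genes tested, 0 passed over ZT0 to ZT12 by edgeR and 4 had an unadjusted p under 0.05, beside 12.1% of all genes.

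Most stellate and sinusoidal endothelial markers also had their lowest mean at ZT12. Of the stellate cell markers 11 of 12 and of the sinusoidal endothelial markers 10 of 14 were lowest at ZT12, beside 29.4% of all genes, and 0 of either passed over ZT0 to ZT12. Cholangiocyte and erythroid markers each had 5 of 6 lowest at ZT12. The cholangiocyte list summed to 68.7, 58.4 and 73.3 CPM at ZT12, against 67.9 to 107.6 at ZT0, ZT4 and ZT8. The erythroid list summed to 22.2, 64.4 and 196.7 CPM at ZT12, against 45.9 to 229.6, and its lowest sum was in the lightest mouse. In wild type 11 of 12 stellate markers were lowest at ZT8 (background 23.3%) and 9 of 14 endothelial markers at ZT12 (background 27.6%). The stellate list summed to 299 to 441 CPM at ZT0, 306 to 599 at ZT4, 198 to 312 at ZT8 and 131 to 389 at ZT12. Each pair of these ranges overlaps. The endothelial list summed to 247 to 384, 235 to 416, 278 to 307 and 260 to 319 CPM at the 4 times in turn. Its ZT12 sums lay within the ranges of ZT0 and ZT4. The median range of its genes was 0.30 on the log2 scale, beside 0.33 for all genes. Hepatocyte markers summed to 34596 to 35923 CPM at ZT0 and 37768 to 42238 at ZT12, far above every other marker list. Those sums hold 8 of the 10 list genes, without Alb and transferrin, which the table lists under another symbol (Trf). Lymphocyte markers went the other way: the 4 tested had their highest mean at ZT12, where the list summed to 1.92, 17.6 and 12.8 CPM in the 3 mice, against at most 9.78 CPM at ZT0, ZT4 and ZT8. Neutrophil markers summed to at most 6.08 CPM at ZT12. The part of these cells in the ZT12 values of Pcolce and Itga8, which stellate cells also express, was not tested.

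Most genes differed at ZT16 and ZT20. Against the other 4 times, a comparison chosen after the data were seen, 8179 of 12707 genes passed (64.4%): 4127 were higher (32.5%) and 4052 lower (31.9%). With the GC trend removed 5753 passed (45.3%), 3199 higher (25.2%) and 2554 lower (20.1%). In wild type 3821 of 12903 were higher (29.6%) and 3690 lower (28.6%). The median transcript GC content was 43.8% for genes that were higher, 54.5% for those lower and 49.6% for the rest, and rho over genes between GC content and the difference was -0.71. The same contrast in wild type, on other libraries, correlated with it over 12517 genes at a rho of 0.88, and at 0.80 with the trend removed in both; genes are not independent and the late libraries of both genotypes share the trend. Of 8121 called genes tested in both, 6252 (77%) were called in the same direction in wild type. Of the wild-type ZT16 libraries, 1 did not match its labelled sex, and without it the rho was 0.88 and the count 6244.

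The 5 genes with the smallest p over 6 times that did not pass over 4 were Nfix, Dag1, Ncln, Nucb1 and Rnasek, and all were lower at ZT16 and ZT20. Nfix, a transcription factor of the nuclear factor I family (mm9 chr8:87223775-87324243), was 60.7 to 94 CPM from ZT0 to ZT12, then 6.15, 7.33 and 7.71 at ZT16 and 13, 8.76 and 9.4 at ZT20. The highest late value was far below the lowest of the 12 others, and the difference was -3.16 ± 0.12 (log2, SE), or -2.42 ± 0.10 with the trend removed (adjusted p = 5.7e-10). Dag1, dystroglycan, was 36.9 to 86.6 CPM early and 4.75 to 14.5 CPM late. Ncln, of the endoplasmic reticulum, was 61.6 to 77.1 CPM early and 13.2 to 21.5 CPM late. Nucb1, a calcium-binding Golgi protein, was 180.4 to 239 CPM early and 41.3 to 76 CPM late. In these genes the early and late values did not overlap. The wild-type differences were -3.23 for Nfix, -2.47 for Dag1 and -1.82 for Nucb1.

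Other genes with large late differences were picked after their values were seen. Lrp5, a WNT co-receptor, was 65.8 to 109.8 CPM from ZT0 to ZT12, then 1.93, 6.16 and 3.52 at ZT16 and 12, 2.21 and 9.94 at ZT20 (difference with the trend removed -3.39 ± 0.26). Srebf2, the gene of SREBP2, was 38.3 to 88.5 CPM early and 6.24 to 21.2 CPM late. Hsp90ab1, a cytosolic chaperone, was 746 to 1134 CPM early and 278 to 519.5 CPM late. Irs2, an insulin receptor substrate, was 7.56 to 56.6 CPM and then 0.0918 to 10.7 CPM; its highest early and late values came from the 13.7 g and the 15.7 g mouse, and the ranges overlap. Rpl21, a ribosomal protein with many pseudogene copies that may share its reads, was 283 to 376 CPM early and 497 to 839 CPM late. Pin4, a prolyl isomerase, was 11.5 to 20.1 CPM early and 16.4 to 43.5 CPM late. The Pin4 ranges overlap at ZT20 replicate 1.

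Snhg1, a host gene of small nucleolar RNAs, also stood out among the early times. It had 13, 14 and 14.1 CPM at ZT0, 7.66, 6.51 and 7.71 at ZT4, 10.2, 11.5 and 11 at ZT8, 7.93, 7.16 and 9.04 at ZT12, 23, 24.4 and 23.8 at ZT16 and 11.7, 15 and 21.5 at ZT20. ZT0 and ZT8 did not overlap with ZT4 and ZT12 (unadjusted p = 0.0002, adjusted p = 0.18 by edgeR over ZT0 to ZT12), and the courses differed between genotypes (interaction adjusted p = 0.013). The late difference was 1.01 ± 0.11 with the trend removed. Thbs1, thrombospondin 1, passed late as well (adjusted p = 0.031 with the trend removed), but its late values were 1.01, 1.25 and 53.5 CPM at ZT16 and 1.28, 0.830 and 1.72 at ZT20, against 0.477 to 2.13 CPM before, and only ZT16 replicate 3 was above the early range. Col1a2 had 6.24, 6.33 and 103 CPM at ZT16, with the high value in the same mouse.

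**Figure D5:**
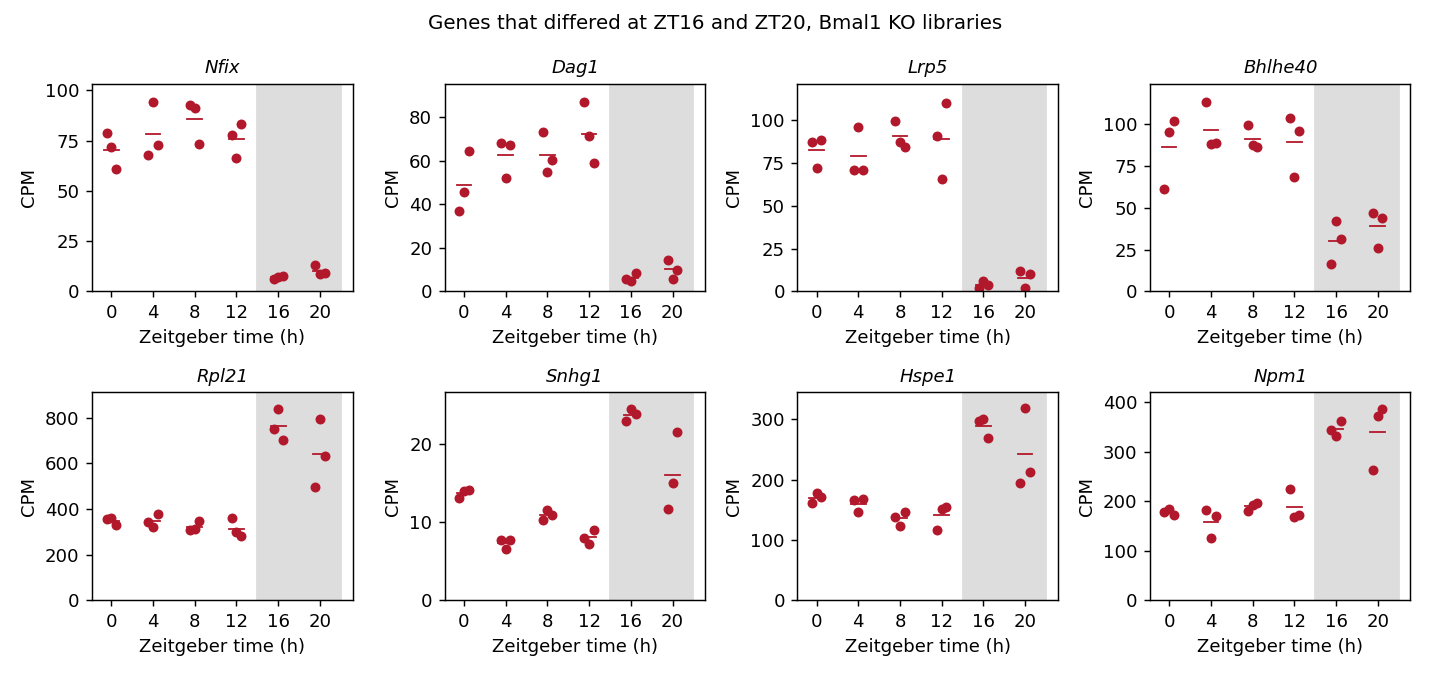
CPM of 8 genes against Zeitgeber time in hours in the 18 knockout libraries, with 1 point per mouse, a line at each mean of 3 and grey at ZT16 and ZT20. Nfix, Dag1, Lrp5 and Bhlhe40 have all 6 late points under the 12 others, and Rpl21 and Npm1 have them above.

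Between the 2 late times, 0 of 12707 genes differed by edgeR (0%, smallest adjusted p = 0.094). At an unadjusted p under 0.05 there were 2520 (19.8%), and DESeq2 called 214. Without ZT20 replicate 2 edgeR called 2365 genes and without ZT16 replicate 2 it called 1091, so 1 mouse changes that count. The GC trend was unequal between these times, with rho of -0.60, -0.57 and -0.63 at ZT16 and -0.42, -0.64 and -0.30 at ZT20. With the trend removed from all 18 libraries edgeR called 0, with 2085 unadjusted. A test of any difference within the 12 early or between the late libraries, on 4 degrees of freedom in the fit of 18, also called 0, with 1648 unadjusted and a smallest adjusted p of 0.053.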

How the data were processed

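Poly(A) RNA of 36 mouse livers was sequenced from stranded libraries, per the labels' protocols. The authors deposited 1 table of read counts for 21654 genes, per the file headers with mm9 positions; the submitters' processing notes name CASAVA, STAR 2.4.0f1 and mm9. The counting program and annotation release are not given in the sources used here. Total counts per library were nearly equal, which the table itself does not explain.

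Counts were fitted with edgeR 4.0.16 (R 4.3.3): TMM scaling, filterByExpr (minimum count 10), labelled sex as a covariate, quasi-likelihood F tests and Benjamini-Hochberg adjustment over all genes tested, with a call at an adjusted p under 0.05. The fits held 18 knockout libraries, the 12 of ZT0 to ZT12, the 12 wild-type libraries of those times, and both genotypes for the difference of courses. Ranges are log2 differences between the highest and the lowest fitted group mean, with sex at its midpoint and no prior count. A prior count of 2 was used in the log2 CPM from which GC trends were taken. An SE is the log2 difference divided by the square root of its F. DESeq2 1.42.0 and limma 3.58.1 were alternatives, as were other filters, covariates and left-out libraries. To remove the GC trend, a natural spline on 4 degrees of freedom over transcript GC content was fitted per library and used as an offset; 97.9% of tested genes had a GC value. Scripts were tested on simulated data.

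Named genes were the core clock list, up to 4 members of each other list with the smallest p over ZT0 to ZT12, the 5 smallest p over 6 times among genes not called over 4, and the parts of the rule that need a call over ZT0 to ZT12, which named 0 genes; genes outside it were chosen after their values were seen. The members and gene lists were chosen with earlier results of these data known. Each library is 1 mouse by its labels. Promoters and motifs came from RefSeq on GRCm38.p6, and no coordinate was converted between builds. A gene counted if any of its listed starts held a motif, so gene counts and shares of single promoters are unlike measures. The values of a few genes that enter the counts are not reported here.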

Additional observations from a re-analysis of the deposited data

Results flagged for a closer look

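Of 150 named genes tested, 26 had courses over ZT0 to ZT12 that differed between knockout and wild type (edgeR interaction test, adjusted p under 0.05; 3.16% of all tested genes). Most named genes outside the core clock were picked by a small p over ZT0 to ZT12 in the same knockout libraries. The share of named genes therefore cannot be set against that of all genes. The core clock gave 15 of the 26. Adjusted p was 1.8e-08 for Dbp, 1.8e-08 for Npas2, 7.3e-08 for Per3, 1.7e-07 for Tef and 8.3e-07 for Arntl. It was 0.00086 for Cry1, 0.00095 for Clock, 0.0045 for Nr1d2, 0.0057 for Per2 and 0.017 for Per1. It was 0.021 for Nfil3, 0.021 for Nr1d1, 0.030 for Bhlhe40 and 0.041 for Cry2.

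The other 11 genes were not core clock genes. Their adjusted p values were 0.0012 for Lrp5, 0.0071 for Stat5b, 0.013 for Snhg1, 0.020 for Saa1 and 0.036 for Cux2. They were 0.039 for Irf7, 0.039 for Ass1, 0.042 for Igfbp3, 0.042 for Slc16a5, 0.047 for Akr1d1 and 0.048 for Cth. The knockout ZT12 mice were lighter than the other early knockout mice, and with body weight as a covariate the test called 370 of all genes against 410 without it; which of the 26 were among them was not computed. In groups of 3 mice no single sample was tested for standing apart.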

How the results depend on the processing

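Over ZT0 to ZT12 in knockout, the edgeR count of 0 became 15 with no filter on low counts, 5 with age as a covariate, 1 in the mice of 13.9 weeks alone, 236 with DESeq2, 36 in the fit of both genotypes, 18 in that fit with the GC trend removed and 121 with DESeq2 without ZT12 replicate 1, the last 2 chosen after seeing the data. It was 0 in all 12 fits without 1 library (range 0 to 0). Against the other 3 times, no filter gave 5 at ZT8 and 37 at ZT12, a minimum of 1 CPM gave 16 at ZT12, DESeq2 gave 23, 34, 8 and 237 at ZT0, ZT4, ZT8 and ZT12, and age gave 2, 1, 1 and 33. Without 1 library these counts were 0 to 0 at ZT0, 0 to 169 at ZT4, 0 to 2 at ZT8 and 0 to 31 at ZT12; ZT4 replicate 2 gave both 169 and 31 when left out. ZT20 against ZT16 gave 168 with no filter, 214 with DESeq2, 1 with age, 9 with weight, 1 in those 6 libraries alone, and 0 to 2365 without 1 library. Over 6 times, the count of 6777 became 4136 with the GC trend removed and 0 in the test within the early and the late libraries, which was chosen after seeing the data; it was 5601 to 7004 without 1 library. The cosine count became 3655 with the trend removed, 0 without ZT16 and ZT20, and 5562 to 6547 without 1 library. The difference of courses gave 796 with DESeq2 and 295 to 615 without 1 library, the highest without ZT4 replicate 2. Wild type gave 944 with no sex covariate and 1163 to 2126 without 1 library; leaving out any 1 of the ZT0 mice gave 1197, 1172 and 1163. ZT16 and ZT20 against the rest gave 7469 to 8232 without 1 library. For these moved counts the cause was not tested. The labels give no replicate numbers to pair mice by; some mice shared a cage, and limma-voom with the cage as a random block called 0 over ZT0 to ZT12, with 1772 at an unadjusted p under 0.05. Groups of 3 mice limit what the tests can call.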

Other observations

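Further gene lists were counted over ZT0 to ZT12 in knockout, where 0 members passed by edgeR and 12.1% of all genes had an unadjusted p under 0.05. Bile acid synthesis and transport genes had 6 of 14 under that unadjusted threshold. Drug metabolism genes had 2 of 21, PPARalpha and fatty acid oxidation genes 3 of 26, and unfolded protein response genes 5 of 20. Male-biased genes had 3 of 13 and 12 of 13 were highest at ZT8 (19.2% of all genes), while female-biased genes had 4 of 9 and 8 of 9 were lowest at ZT8 (17.4% of all genes). ZT8 replicate 3, a female, stood between the sexes: its median difference was -0.29 (log2) over male-biased genes, against -4.20 to -1.58 in the other 5 early females, and 0.67 over female-biased genes, against 2.22 to 3.25. The ZT8 males, at 2.22 and 1.85 over male-biased genes, lay close to the ZT0 males at 2.30 and 1.90. Immediate early genes had 1 of 21 and cell cycle genes 1 of 18.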
